A study of Rattus norvegicus with 50 samples.

Results

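The livers described here came from rats killed 7 days after a brain injury, 5 given erythropoietin (EPO) and 5 given the vehicle, saline. The 10 arrays were chosen by their titles from the 50 arrays of the study, 1 array to a liver. The study set out to measure what traumatic brain injury, EPO and anakinra do to the enzymes and transporters with which the liver handles drugs. All animals were male Sprague Dawley rats, approximately 3 months old. EPO rats had a controlled cortical impact (CCI), a piston blow to the exposed brain, and received EPO at 2500 IU/kg. Vehicle rats had the same injury and received saline. Anakinra rats, used here at 7 days only beside the others, had the injury and received the interleukin-1 receptor antagonist at 100 mg/kg. The sham group is named intact, has no CCI, and its time label reads control rather than a number of days. A comparison with sham therefore sets injury plus EPO against neither. EPO and vehicle rats examined at 24 hours and 72 hours were other animals. The sources used here give neither the dosing schedule nor the time of day nor any perfusion of the liver. RNA came from punches of the median lobe, and whether blood remained in them is not known.

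EPO is the hormone that keeps red cell precursors alive and dividing, through a receptor that signals by the kinase JAK2 and the transcription factor STAT5. Red cell production draws iron from plasma, and the hepatocyte hormone hepcidin, the product of Hamp, sets how much iron enters plasma by closing the exporter ferroportin. Hepcidin is driven by bone morphogenetic protein (BMP) signalling through SMAD proteins and by inflammation through STAT3, and it is held down while red cells are being made. The rat makes most red cells in marrow and spleen, and reticulocytes, the youngest cells of the blood, still carry the messages of haemoglobin and of the red cell membrane.

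The promoter of Hamp is shown because Hamp had the largest difference of the 14506 genes tested. Those of Alas2, Rhd and Gfi1b are shown because these are genes of heme synthesis, red cell membrane and erythroid control that were higher in EPO livers. Each is the RefSeq sequence of build GRCr8 in the gene's own direction, from 250 bases before to 50 bases after its annotated start. In Hamp (chr1:95300222-95300521, minus strand) the capitals mark GGCGCC, the core letters of a BMP response element, and TTCTTGGAA, a match to the STAT letters TTCNNNGAA, with 6 bases between them. In Alas2 (chrX:22895200-22895499, plus strand) they mark AGATAA, the letters bound by GATA factors. In Rhd (chr5:152370950-152371249, plus strand) and Gfi1b (chr3:32350852-32351151, minus strand) they mark AGATAA or TGATAA and, on the opposite strand, a match to CCNCNCCC, the letters bound by KLF1 and other KLF factors.
Hamp: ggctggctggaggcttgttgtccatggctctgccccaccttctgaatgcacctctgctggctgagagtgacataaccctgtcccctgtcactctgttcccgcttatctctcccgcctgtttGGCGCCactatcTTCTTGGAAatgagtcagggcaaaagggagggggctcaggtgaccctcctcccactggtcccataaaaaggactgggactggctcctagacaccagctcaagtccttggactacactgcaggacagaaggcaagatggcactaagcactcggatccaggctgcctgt
Alas2: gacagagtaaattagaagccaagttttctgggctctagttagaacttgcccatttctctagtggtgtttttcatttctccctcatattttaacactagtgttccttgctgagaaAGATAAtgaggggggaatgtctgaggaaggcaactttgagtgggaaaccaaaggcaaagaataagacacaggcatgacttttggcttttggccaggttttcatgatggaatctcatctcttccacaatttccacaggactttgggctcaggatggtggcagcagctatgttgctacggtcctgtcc
Rhd: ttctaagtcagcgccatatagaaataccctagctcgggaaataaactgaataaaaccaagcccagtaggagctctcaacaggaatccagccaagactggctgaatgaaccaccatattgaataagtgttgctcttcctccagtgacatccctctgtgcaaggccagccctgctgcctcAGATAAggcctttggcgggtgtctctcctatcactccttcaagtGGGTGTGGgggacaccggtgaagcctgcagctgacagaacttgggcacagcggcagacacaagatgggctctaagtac
Gfi1b: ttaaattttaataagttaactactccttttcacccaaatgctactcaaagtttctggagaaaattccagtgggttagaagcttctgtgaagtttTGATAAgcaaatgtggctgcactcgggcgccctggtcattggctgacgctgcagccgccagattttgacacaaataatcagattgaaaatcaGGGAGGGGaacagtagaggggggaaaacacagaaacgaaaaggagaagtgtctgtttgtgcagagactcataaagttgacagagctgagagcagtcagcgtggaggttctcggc

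These motifs were searched on both strands of the same window in every gene with an entry, and a match describes letters, not a bound site. AGATAA or TGATAA stood in 10 of the 40 higher genes that had an entry (25%), in 7 of the 14 such genes on the erythroid lists described below (50%) and in 15.04% of the 11968 genes tested that had one. GGCGCC stood in 37.5% of the higher genes, in 42.9% of the erythroid ones and in 16.8% of all. CCNCNCCC stood in 65% of the higher genes, 64.3% of the erythroid ones and 58.0% of all. TTCNNNGAA stood in 12.5%, 7.14% and 7.59% of the same sets. The Hamp window holds 1 match to each of the 4 motifs, and so does the Gfi1b window, with no overlap between them, and the capitals mark a pair of them in each. Alox15, Ahsp, Slc4a1, Slc25a37 and Car2 had no entry.

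The hybridisations at 7 days were alike overall. The median log2 value per array lay between 6.68 and 6.85, its SD over probes between 1.997 and 2.135, and the lowest correlation between any pair of the 10 arrays was 0.976. No pair of the 50 arrays correlated above 0.996, so none was a copy of another. EPO array 3 and vehicle array 3 had the narrowest spread. The tissue label held: the median over 25 measured hepatocyte markers stood at 12.97 or above in each of the 10 arrays and at the 99.7th percentile of all genes. Values are log2 RMA values, on which a difference of 1 is a 2-fold difference in signal, and arrays are numbered as in the titles.

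Between EPO and vehicle livers at 7 days, 48 genes were higher (0.331% of 14506) and 5 were lower (0.0345%) at an adjusted p below 0.05 in limma. Without the adjustment, 379 genes (2.61%) were higher and 342 (2.36%) lower at p below 0.05. A change of at least 2-fold was reached by 25 of the 48 higher genes and by 1 of the 5 lower genes, Hamp. All 5 EPO arrays lay above all 5 vehicle arrays for 43 of the 48 higher genes, a separation that 96 of all genes (0.662%) showed. The EPO arrays lay below the vehicle arrays for 4 of the 5 lower genes, as they did for 52 of all genes (0.358%). Members of 3 erythroid gene lists made up 21 of the 48 higher genes: of their 65 measured members, 21 passed and all 21 were higher. These lists were chosen with earlier results of these data known, so the 21 is partly set by that choice. Red cell genes that stand on none of the 3 lists are not counted in it. Without EPO array 1 the counts were 30 higher and 4 lower, and 31 of the 53 genes passed whichever of the 10 arrays was left out. In whole tissue, more red cell precursors or reticulocytes in a punch and more RNA per cell cannot be told apart.

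**Figure D1:**
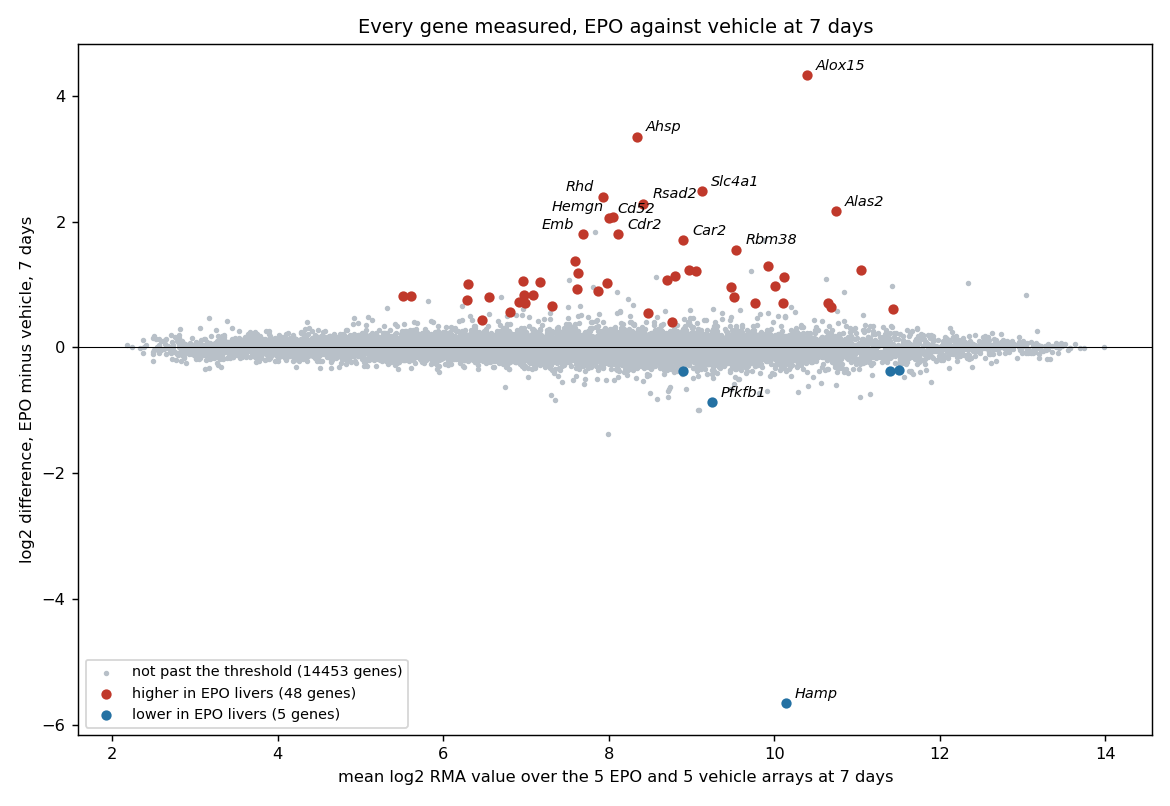
Each point is 1 of 14506 genes, with its mean log2 RMA value over the 10 arrays on the x axis and its log2 difference, EPO minus vehicle at 7 days, on the y axis. Most points lie near 0 at every level, while 48 red points stand above and 5 blue points below, with Alox15 at 4.32 and Hamp at -5.66 the farthest.

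Hamp, which encodes hepcidin, had log2 values of 7.20, 7.08, 7.46, 7.54 and 7.26 in the EPO livers, against 12.99, 12.95, 13.34, 13.02 and 12.56 in the vehicle livers. Every EPO value lay more than 5 log2 units below the lowest vehicle value, and neither group had a liver that stood apart. The means were 7.31 ± 0.19 in EPO livers and 12.97 ± 0.28 in vehicle livers (SD, n = 5 each), a log2 difference of -5.66 (95% interval -6.54 to -4.79, adjusted p = 6.58e-13 in limma). That is a signal 50.7-fold lower in EPO livers. Sham livers, at 12.70, 12.94, 13.07, 12.77 and 13.03, and anakinra livers at 7 days, at 12.26, 12.96, 11.998, 12.87 and 12.90, lay with the vehicle livers. The same EPO livers therefore differed from sham by -5.59.

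The genes known to control hepcidin did not pass with it. Of the 35 measured genes of the hepcidin and BMP-SMAD list, Hamp was the only one that passed. At an unadjusted p below 0.05 in limma, 6 including Hamp were lower and 0 higher, when 2.36% of all genes were lower. The median log2 difference was -0.05, against -0.0032 over all genes. Among the target genes that report SMAD activity in liver, Id1 differed by -0.05 (95% interval -0.21 to 0.10), Smad7 by -0.24 (-0.47 to -0.02) and Id3 by -0.45 (-0.78 to -0.12, adjusted p = 0.641). Atoh8, a transcription factor that acts on the hepcidin promoter, differed by -0.27 (-0.51 to -0.03). These intervals lie below 0 for Smad7, Id3 and Atoh8, and none survived adjustment over all genes. The ligand gene Bmp6 differed by 0.01 (-0.24 to 0.27). Of the iron sensors and co-receptors at the hepatocyte surface, Tfr2 differed by 0.01 (-0.17 to 0.18) and Hjv, hemojuvelin, by 0.16 (-0.16 to 0.49). Tmprss6, the protease that cleaves hemojuvelin, differed by -0.11 (-0.31 to 0.09). Erfe, the erythroblast hormone that lowers hepcidin, was not analysed here.

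Of the 37 genes of iron and heme handling, 2 rose, Tfrc and Ncoa4, with a list median of 0.02. Tfrc, the transferrin receptor through which erythroblasts take up iron, read 10.03, 9.83, 9.16, 9.77 and 9.51 in EPO livers, against 8.78, 8.71, 7.9996, 8.02 and 8.70 in vehicle livers. The groups did not overlap, and the log2 difference was 1.22 (95% interval 0.78 to 1.66, adjusted p = 0.000949), 2.33-fold higher in EPO livers. Against sham the EPO livers differed in Tfrc by 0.84, and 1 sham liver, at 9.26, lay above the lowest EPO liver. Ncoa4, which delivers ferritin for breakdown, read 11.53, 10.75, 10.67, 10.96 and 11.12 in EPO livers, against 10.52, 10.40, 10.14, 10.41 and 10.36 in vehicle livers. These values separated too, by 0.64 (adjusted p = 0.014), although the call was lost without EPO array 1, EPO array 5 or vehicle array 3. It was also lost with only the 2 groups in the fit (adjusted p = 0.161). Genes of iron export and storage did not pass. Slc40a1, ferroportin, differed by 0.27 (0.04 to 0.50, adjusted p = 0.907), Hmox1, heme oxygenase, by 0.33 (0.00 to 0.65), and Fth1, the ferritin heavy chain, by 0.06 (-0.08 to 0.20). Cd163, the macrophage receptor for haemoglobin bound to haptoglobin, differed by 0.01 (-0.27 to 0.29).

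**Figure D2:**
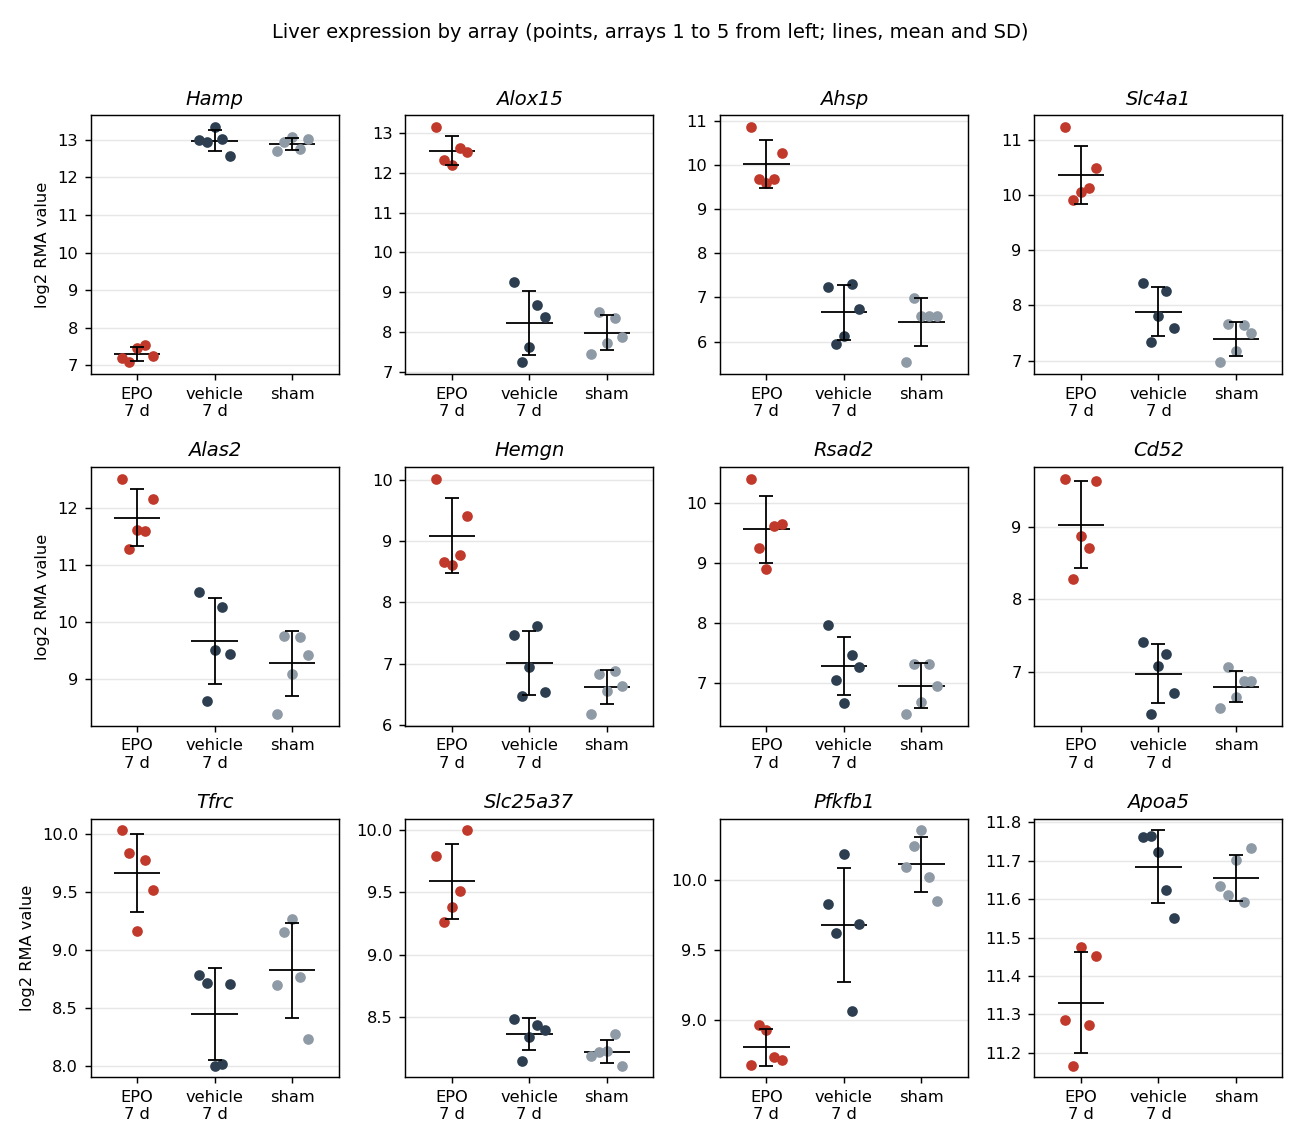
Log2 RMA values of 12 genes in each EPO liver at 7 days (red), vehicle liver at 7 days (dark) and sham liver (grey), with lines for the mean and SD of 5 arrays and each panel on its own scale. Hamp, Pfkfb1 and Apoa5 lie lower in EPO livers and the other 9 genes higher, and EPO array 1, the leftmost point, is the highest in most panels.

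Genes of the red cell membrane and skeleton formed the erythroid list with the largest share passing. Of 16 measured, 8 rose and none fell, with a list median of 0.66. Slc4a1, the anion exchanger band 3, read 11.23, 9.91, 10.06, 10.13 and 10.48 in EPO livers, against 8.40, 7.34, 7.81, 8.27 and 7.59 in vehicle livers. The lowest EPO liver was above the highest vehicle liver, and the log2 difference was 2.48 (1.70 to 3.27, adjusted p = 0.000176), 5.59-fold. Rhd, a Rhesus blood group protein, read 10.20, 8.68, 8.65, 9.01 and 9.12 in EPO livers, against 7.11, 6.14, 6.43, 7.30 and 6.70 in vehicle livers. The difference was 2.40 (1.67 to 3.12, adjusted p = 7.91e-05), with EPO array 1 a full log2 unit above the other EPO arrays.

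Epb42, protein 4.2, which ties band 3 to the skeleton, read 9.43, 7.74, 7.57, 8.27 and 8.38 in EPO livers, against 7.08, 6.57, 6.89, 7.15 and 6.81 in vehicle livers. These groups did not overlap either, and the difference was 1.38 (adjusted p = 0.000949), or adjusted p = 0.0591 with only the 2 groups in the fit. The skeleton genes Add2 (adducin, 1.18), Sptb (spectrin beta chain, 1.05), Epb41 (protein 4.1, 0.97) and Ank1 (ankyrin, 0.83) passed as well. Rhag, the Rhesus-associated channel, read 6.64, 6.01, 5.64, 5.62 and 5.70 in EPO livers, against 5.16, 5.22, 5.33, 4.98 and 4.84 in vehicle livers, a difference of 0.81 (adjusted p = 0.00963). Sptb did not pass without EPO array 1, vehicle array 2 or vehicle array 5, and Rhag did not without EPO array 1 or vehicle array 5. Neither gene passed with only the 2 groups in the fit, and Sptb also failed without the narrow arrays. Of the 8 that did not pass, Tmod1, which caps actin filaments, differed by 0.51 (adjusted p = 0.313), Aqp1, a water channel also found in other cells, by 0.36, and Xk, a blood group protein, by -0.31.

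Of the 19 measured genes of globin, heme synthesis and mitochondrial iron, 4 rose, with a list median of 0.20. Ahsp, the chaperone of free alpha globin, read 10.85, 9.68, 9.60, 9.69 and 10.27 in EPO livers, against 7.23, 5.94, 6.12, 7.31 and 6.74 in vehicle livers. The gap between the groups exceeded the spread within either, at a log2 difference of 3.35 (2.21 to 4.49, adjusted p = 0.000442), 10.2-fold. Alas2, the erythroid first enzyme of heme synthesis, read 12.51, 11.27, 11.61, 11.60 and 12.15 in EPO livers, against 10.51, 8.61, 9.49, 10.26 and 9.43 in vehicle livers. It was 4.49-fold higher (log2 difference 2.17, 1.23 to 3.11, adjusted p = 0.0118). It did not pass without EPO array 1 or vehicle array 2, nor without the narrow arrays together, nor with array weights. Slc25a37, mitoferrin, which carries iron into mitochondria, read 9.80, 9.26, 9.38, 9.51 and 9.9991 in EPO livers, against 8.48, 8.15, 8.34, 8.44 and 8.39 in vehicle livers. It had the tightest vehicle values of the 3 genes, and its difference was 1.23 (0.92 to 1.54, adjusted p = 1.91e-06).

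Fech, ferrochelatase, which puts iron into heme, read 10.62, 9.69, 9.56, 9.65 and 10.08 in EPO livers, against 9.45, 8.85, 9.0009, 9.15 and 9.13 in vehicle livers. The difference was 0.80 (adjusted p = 0.0232), and it was lost without EPO array 1 or 5 or any 1 of vehicle arrays 2, 3, 4 and 5. The Fech call was also lost with only the 2 groups in the fit (adjusted p = 0.161). Hbb, beta globin, did not pass: it read 13.76, 13.23, 13.24, 13.53 and 13.49 in EPO livers, against 13.12, 11.99, 12.43, 13.15 and 12.43 in vehicle livers. Its EPO values all lay above the vehicle values, near the upper end of the scale, where the highest value of any probe was 14.24, and the difference was 0.83 (0.20 to 1.45, adjusted p = 0.699). Further genes of heme synthesis did not pass either. Alas1, the housekeeping counterpart of Alas2, differed by -0.11, Alad by 0.33 (adjusted p = 0.151), Urod by 0.27 and Cpox by 0.06.

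Of 30 erythroid regulators and maturation genes, 9 rose, with a median of 0.33. Alox15, the lipoxygenase that attacks the mitochondria of maturing reticulocytes, had the largest increase of all genes. It read 13.14, 12.31, 12.19, 12.61 and 12.52 in EPO livers, against 9.25, 7.24, 7.61, 8.68 and 8.37 in vehicle livers. The vehicle livers spread over 2 log2 units and the EPO livers over less than 1, and the groups stood far apart: the log2 difference was 4.32 (3.22 to 5.42, adjusted p = 1.91e-06), 20.0-fold higher in EPO livers. Bnip3l, which marks mitochondria for removal in reticulocytes, was higher by 0.60 (adjusted p = 0.000872). Hemgn, a nuclear protein of erythroid precursors, read 10.02, 8.65, 8.60, 8.77 and 9.41 in EPO livers, against 7.48, 6.48, 6.95, 7.62 and 6.55 in vehicle livers. The groups did not overlap, and the difference was 2.08 (1.40 to 2.75, adjusted p = 0.000204).

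Car2, carbonic anhydrase 2, read 10.92, 9.25, 9.29, 9.74 and 9.57 in EPO livers, against 8.29, 7.58, 7.60, 8.80 and 7.99 in vehicle livers, higher by 1.70 (adjusted p = 0.000757). Gfi1b, a transcriptional repressor of the red cell and platelet lineages, read 7.82, 7.29, 7.55, 7.54 and 8.01 in EPO livers, against 6.92, 6.80, 7.30, 7.13 and 6.77 in vehicle livers. It was 1 of the 5 higher genes whose groups touched, by EPO array 2 and vehicle array 3, and it was higher by 0.66 (adjusted p = 0.000198), or adjusted p = 0.112 with only the 2 groups in the fit. Emb, embigin (1.80), Cd36, a fatty acid receptor found on reticulocytes and on other cells (1.14), Tfrc, which is also on this list, and the ring finger gene Rnf10 (0.71) completed the 9, of which Rnf10 did not pass with only the 2 groups in the fit (adjusted p = 0.152). The transcription factors at the head of the erythroid programme did not pass. Klf1 read 8.60, 7.48, 7.42, 7.78 and 7.83 in EPO livers, against 7.18, 7.14, 7.27, 7.41 and 6.94 in vehicle livers, a difference of 0.63 (0.26 to 1.01, adjusted p = 0.247). Every EPO liver was above every vehicle liver in Klf1, by little except in array 1. Gata1 differed by 0.18 (-0.07 to 0.44) and Tal1 by -0.01. Bpgm, which makes the 2,3-bisphosphoglycerate of red cells, differed by 1.12 and missed the threshold (adjusted p = 0.0667).

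The genes of the receptor's own signalling did not pass at 7 days. None of 31 measured genes of EPO, JAK2-STAT5 signalling and feedback passed in limma, with 1 higher and 0 lower at an unadjusted p below 0.05. The receptor gene Epor differed by 0.04 (-0.12 to 0.20). The feedback genes Cish and Socs2, classic STAT5 targets, differed by -0.79 (-2.05 to 0.46) and -0.75 (-1.65 to 0.15), with intervals wide enough to hold more than a 2-fold change. Of 62 cell cycle genes none passed in limma, with 7 higher and 3 lower at an unadjusted p below 0.05. Over all genes, 2.61% were higher and 2.36% lower at that p. Cdc25b, a phosphatase that triggers division, was nearest at 1.71 (adjusted p = 0.0561). It read 11.22, 9.83, 10.82, 10.42 and 11.38 in EPO livers, against 9.71, 8.09, 9.08, 9.58 and 8.67 in vehicle livers, with no overlap.

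**Figure D3:**
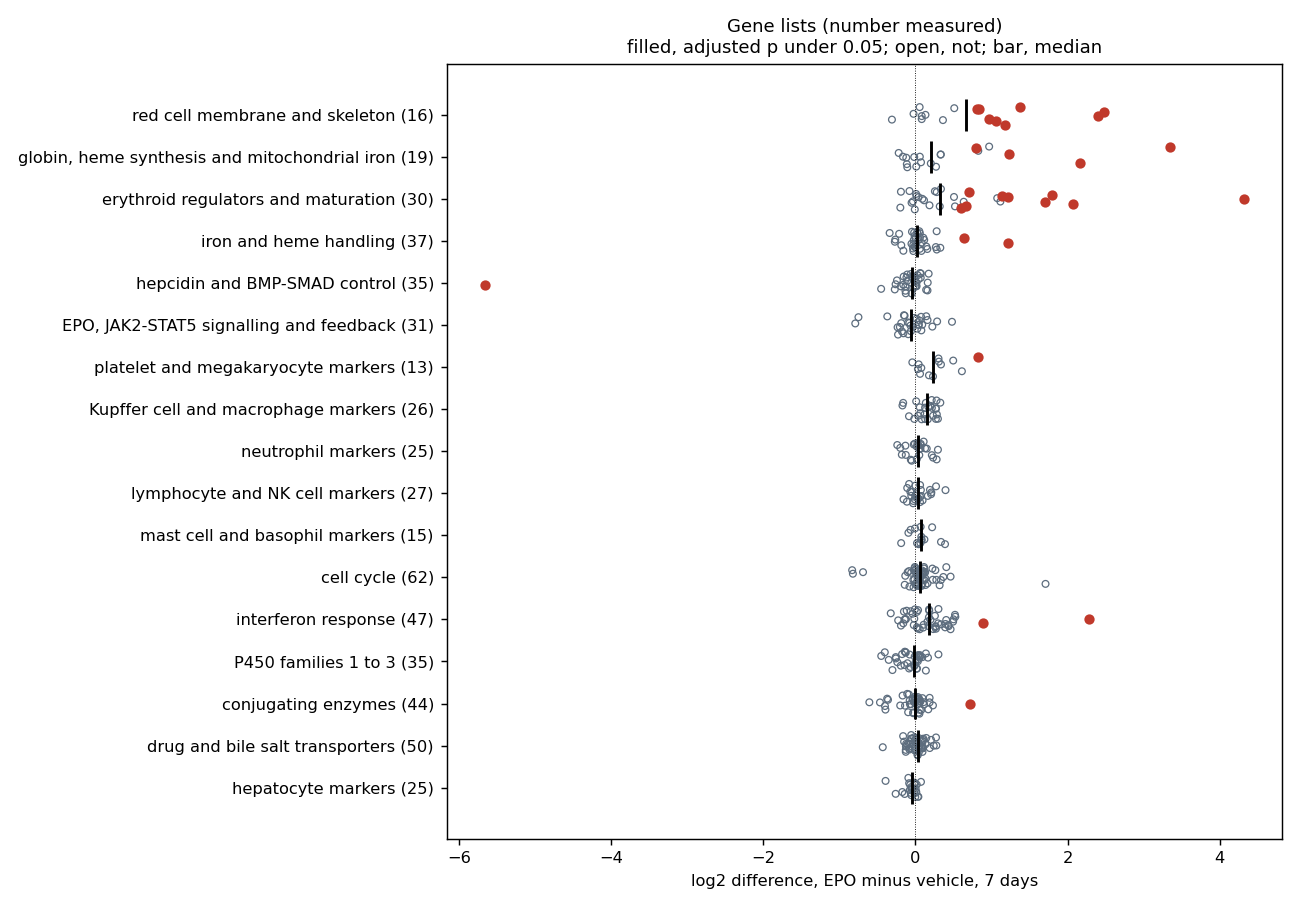
Log2 difference, EPO minus vehicle at 7 days, of each measured gene of 17 lists, with filled points for an adjusted p below 0.05 and a bar at the list median. Filled points gather on the 3 erythroid lists at the top, whose medians are 0.66, 0.20 and 0.33, while the platelet list has a median of 0.23, the Kupffer cell list 0.15, and the P450, conjugating enzyme, transporter and hepatocyte lists lie within 0.05 of 0.

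Markers of other blood cells were measured beside the erythroid genes. The mean log2 level over the red cell membrane list was 8.14 to 8.85 in EPO livers, 7.41 to 7.77 in vehicle livers and 7.43 to 7.69 in sham livers, with no overlap between EPO and the rest. The globin and heme list (9.53 to 10.003 in EPO livers, 8.94 to 9.41 in vehicle livers) and the erythroid regulators (8.38 to 8.92 in EPO livers, 7.75 to 8.09 in vehicle livers) separated in the same way. Kupffer cell and macrophage markers stood at 8.78 to 9.25 in EPO livers and 8.75 to 9.0006 in vehicle livers, and 0 of 26 passed in limma (3 at an unadjusted p below 0.05). Neutrophil markers stood at 5.86 to 6.12 in EPO livers and 5.88 to 6.16 in vehicle livers, with 0 of 25 passing (1 unadjusted), and lymphocyte and NK cell markers at 6.58 to 6.80 in EPO livers and 6.54 to 6.78 in vehicle livers, with 0 of 27 passing (1 unadjusted). Mast cell and basophil markers stood at 5.53 to 5.66 in EPO livers and 5.45 to 5.61 in vehicle livers, with 0 of 15 passing (1 unadjusted). The ranges of these 4 lists overlapped. At an unadjusted p below 0.05 in limma, 2.61% of all genes were higher and 2.36% lower.

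Platelet and megakaryocyte markers stood at 6.83 to 7.32 in EPO livers and 6.68 to 6.90 in vehicle livers. Of 13 measured, 1 passed and 6 were higher at an unadjusted p below 0.05, as were 2.61% of all genes, with a list median of 0.23. The 1 that passed was Ppbp, a chemokine of platelet granules, at 7.69, 6.84, 7.48, 7.37 and 7.55 in EPO livers, against 6.49, 6.30, 6.83, 6.57 and 6.62 in vehicle livers. The groups were barely apart and the difference of 0.83 (adjusted p = 0.0243) was lost without EPO array 1, 3, 4 or 5 or vehicle array 1, 2, 4 or 5. Pf4, platelet factor 4, differed by 0.61 (adjusted p = 0.189). The part of platelets, and of blood left in the vessels, in the erythroid result was not tested.

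The 48 genes did not have the same height in each EPO liver. EPO array 1 was the highest of its group for 40 of the 48, and for 18 of the 21 on the erythroid lists. EPO array 2 was the lowest for 26 of the 48 and EPO array 3 for 16. Among vehicle livers, array 2 was the lowest for 24, and arrays 1 and 4 were the highest for 19 and 13. How often each array was highest or lowest over all genes was not counted. EPO array 1 also had the highest mean level of its group on lists without a called gene, such as the hepatocyte, ribosomal protein and Kupffer cell lists. On the P450 and oxidative phosphorylation lists EPO array 2 had the highest. The lead of EPO array 1 is thus not particular to the 48 genes.

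**Figure D4:**
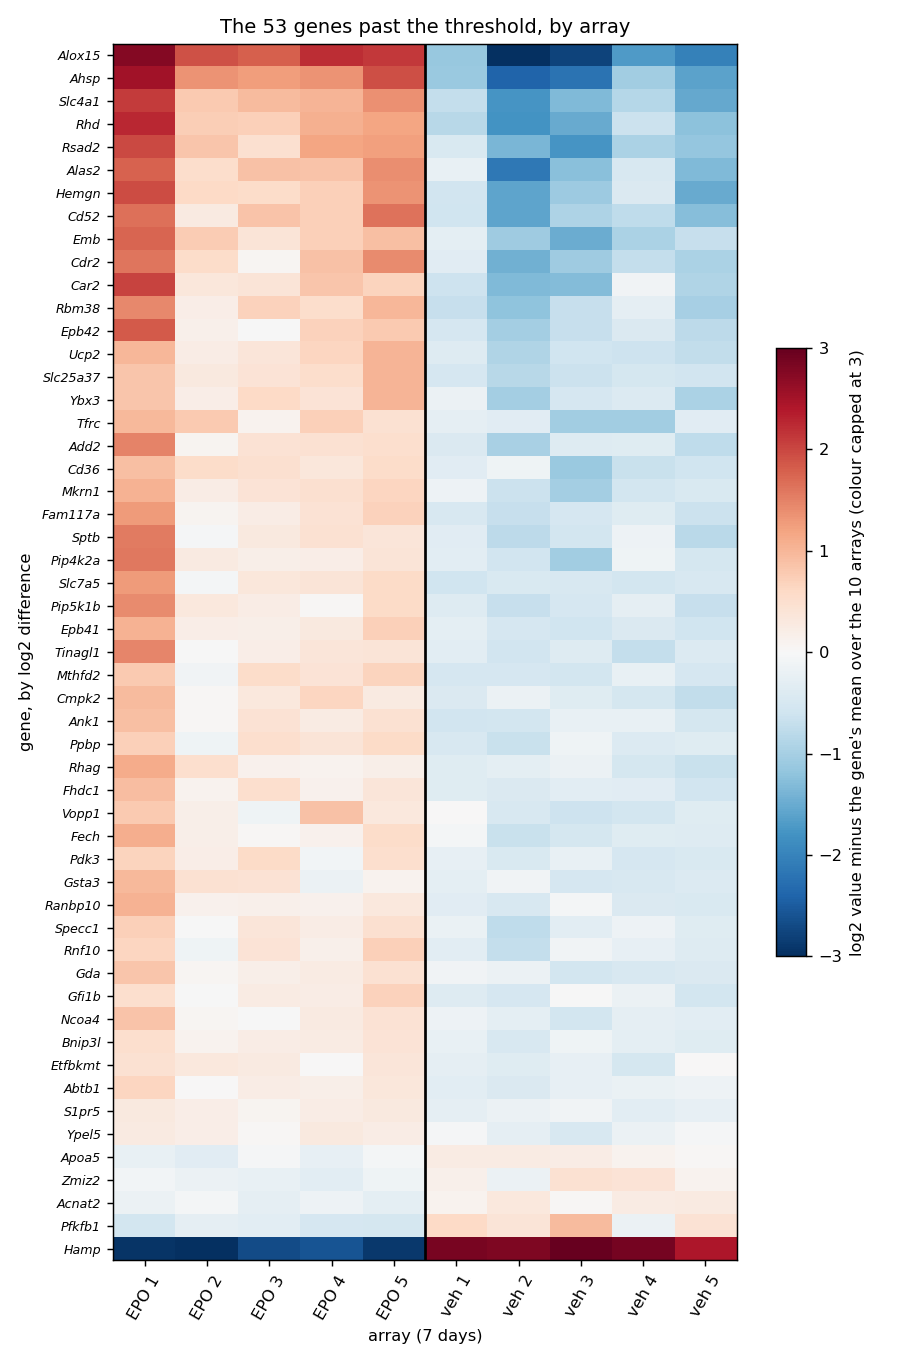
Each row is 1 of the 53 genes past the threshold, ordered by its log2 difference, and each column 1 array at 7 days, 5 EPO arrays left of 5 vehicle arrays. Colour gives the log2 value minus the gene's mean over the 10 arrays. The column of EPO array 1 is the deepest red for most genes, and vehicle array 2 is among the deepest blue.

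Among genes that rose and stand on no erythroid list, the largest difference was that of Rsad2, viperin, an antiviral enzyme made on interferon signalling. It read 10.40, 9.25, 8.90, 9.61 and 9.64 in EPO livers, against 7.97, 7.05, 6.66, 7.46 and 7.26 in vehicle livers. All EPO livers were higher, by 2.28 on average (1.59 to 2.97, adjusted p = 7.91e-05), 4.86-fold. Cmpk2, a mitochondrial nucleotide kinase whose gene is the immediate neighbour of Rsad2 in GRCr8, read 8.81, 7.91, 8.19, 8.52 and 8.14 in EPO livers, against 7.44, 7.70, 7.50, 7.35 and 7.13 in vehicle livers. It was higher by 0.89 (adjusted p = 0.00252). These were the only 2 of 47 measured interferon response genes that passed. At an unadjusted p below 0.05 in limma, 7 were higher, as were 2.61% of all genes, and the list median was 0.18. Isg15, Irf7 and Ifi44l, widely used reporters of interferon, differed by 0.30, 0.40 and 0.50 and did not pass. Further members of the list went the other way without passing, such as Ifit1 at -0.23 and Cxcl10 at -0.15.

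Cd52, a small surface glycoprotein known from lymphocytes, read 9.66, 8.28, 8.86, 8.70 and 9.63 in EPO livers, against 7.41, 6.42, 7.08, 7.24 and 6.72 in vehicle livers. It was 4.15-fold higher (2.05, 1.50 to 2.61, adjusted p = 7.74e-06), with no overlap, while the lymphocyte list had the flat values given above. Ucp2, a carrier of the inner mitochondrial membrane, read 10.91, 10.14, 10.30, 10.56 and 10.94 in EPO livers, against 9.53, 9.02, 9.32, 9.31 and 9.19 in vehicle livers, higher by 1.30 (adjusted p = 0.000949). Ucp2 and Cd36 were the 2 of 35 genes of fatty acid oxidation and ketogenesis that passed, and that list's median was -0.06. Slc7a5, the light chain of a leucine transporter, read 9.26, 7.93, 8.33, 8.38 and 8.56 in EPO livers, against 7.38, 7.53, 7.50, 7.44 and 7.50 in vehicle livers, higher by 1.02 (adjusted p = 0.00203). Mthfd2, an enzyme of mitochondrial folate metabolism, read 8.40, 7.52, 8.18, 8.03 and 8.28 in EPO livers, against 7.12, 7.12, 7.06, 7.39 and 7.11 in vehicle livers, higher by 0.92 (adjusted p = 0.00113). Both belong to the list of ATF4 amino acid response and ER stress genes, of which 2 of 39 passed with a median of -0.07, and Asns, asparagine synthetase, a further member, differed by 0.96 (0.33 to 1.60, adjusted p = 0.457).

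A further group of higher genes stood on none of the 37 lists, and whether red cell precursors express them was not tested. Cdr2, a protein known as a target of antibodies in cerebellar degeneration, differed by 1.80 (adjusted p = 0.000423) and Rbm38, an RNA-binding protein, by 1.55 (0.000442). Ybx3, a cold shock domain protein, differed by 1.23, Mkrn1, a ubiquitin ligase, by 1.12 and Fam117a by 1.08. Pip4k2a and Pip5k1b, kinases of membrane phosphoinositides, differed by 1.04 and 1.01. Tinagl1, a matrix protein, differed by 0.96. Pip5k1b and Tinagl1 did not pass without EPO array 1, nor Pip4k2a without EPO array 1 or vehicle arrays 2, 3 or 5, while Cdr2, Rbm38, Ybx3, Mkrn1 and Fam117a passed whichever array was left out. Pip5k1b, Tinagl1 and Pip4k2a also failed with only the 2 groups in the fit. Pip4k2a failed as well without the narrow arrays and with arrays scaled to a common median and absolute deviation. Of the 48 higher genes, 19 stood on none of the 37 lists.

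Of the 5 lower genes, 4 changed by less than 2-fold. Pfkfb1, the liver enzyme that makes and breaks down fructose 2,6-bisphosphate, a regulator of glycolysis, read 8.68, 8.97, 8.93, 8.74 and 8.72 in EPO livers, against 9.83, 9.62, 10.19, 9.07 and 9.69 in vehicle livers. The EPO livers were close together and below the lowest vehicle liver, array 4, and the log2 difference was -0.87 (-1.29 to -0.45, adjusted p = 0.04), 1.83-fold lower. It was the 1 gene of 25 in glucose metabolism that passed. Apoa5, an apolipoprotein that promotes triglyceride clearance, read 11.29, 11.17, 11.48, 11.27 and 11.45 in EPO livers, against 11.76, 11.77, 11.72, 11.62 and 11.55 in vehicle livers, lower by 0.35 in the mean (-0.35, adjusted p = 0.0183). Acnat2, an acyltransferase of peroxisomes, read 11.22, 11.36, 11.12, 11.24 and 11.11 in EPO livers, against 11.52, 11.71, 11.44, 11.64 and 11.67 in vehicle livers. Its groups did not overlap, the difference was -0.38 (adjusted p = 0.00315), and a second probe of the gene also passed at -0.43. Zmiz2, a transcriptional coactivator, read 8.81, 8.72, 8.67, 8.57 and 8.76 in EPO livers, against 9.04, 8.72, 9.36, 9.31 and 8.99 in vehicle livers, a difference of -0.38 (adjusted p = 0.0456), and vehicle array 2 lay within the EPO range.

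Only Hamp and Acnat2 of these 5 passed whichever array was left out, and Acnat2 did not pass with only the 2 groups in the fit (adjusted p = 0.178) or with arrays scaled to a common median and absolute deviation (adjusted p = 0.219). Pfkfb1 did not pass without EPO array 1, 3, 4 or 5 or vehicle array 1, 2, 3 or 5. Apoa5 did not without EPO array 1, 2 or 4 or vehicle array 1, 2 or 3. It also failed with only the 2 groups in the fit, with arrays scaled to a common median and absolute deviation, and when centred on hepatocyte markers. Pfkfb1 also failed with array weights, with arrays quantile-normalized again and without the narrow arrays. Of the 10 fits that each left out 1 array, Zmiz2 passed only the one without vehicle array 2, and it passed 3 of 12 other alternatives. The count of lower genes was 2 without EPO array 4 or vehicle array 3, and 3 without EPO array 5 or vehicle array 1.

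Drug metabolism and transport, the subject of the study, had 1 measured gene past the threshold between EPO and vehicle livers at 7 days. Measured were 35 of 42 listed P450 genes, 44 of 68 conjugating enzymes and 50 of 57 transporters. The conjugating enzyme gene Ugt1a1 was not analysed here. At an unadjusted p below 0.05 in limma, 2.61% of all genes were higher and 2.36% lower. Of 35 measured cytochrome P450 genes of families 1 to 3, none passed, with 1 higher and 3 lower at that p. Their log2 differences ran from -0.45 to 0.30 with a median of -0.02, and the median half-width of their 95% intervals was 0.20. Cyp2c11, the male-specific P450 of rat liver, averaged 13.19 in EPO livers and 13.20 in vehicle livers, a difference of -0.01 (-0.12 to 0.10). Cyp3a2 averaged 12.85 ± 0.16 in EPO livers and 12.85 ± 0.19 in vehicle livers (SD, n = 5 each; interval of the difference -0.16 to 0.16). Cyp1a2, which clears caffeine, averaged 12.23 ± 0.10 in EPO livers and 12.30 ± 0.11 in vehicle livers (difference -0.07, -0.22 to 0.09). For these 3 enzymes the intervals lay within 0.22 log2 units of 0 in array signal, which is high for Cyp2c11 and Cyp3a2 and may be compressed there. Cyp2b1, the phenobarbital-inducible enzyme, varied more, at 8.24 ± 0.52 in EPO livers and 8.69 ± 0.96 in vehicle livers (difference -0.45, -1.33 to 0.43), so a change of 2-fold lay within its interval.

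Of 44 conjugating enzymes, with a median of -0.01, 3 were lower and 1 higher at an unadjusted p below 0.05 in limma. The 1 higher was Gsta3, a glutathione transferase, which was the 1 gene that passed. It read 7.90, 7.37, 7.34, 6.74 and 7.02 in EPO livers, against 6.61, 6.82, 6.42, 6.44 and 6.50 in vehicle livers. EPO array 4 lay below vehicle array 2, and the difference of 0.72 (adjusted p = 0.0478) was lost without EPO array 1, 2 or 3 or vehicle array 1, 3, 4 or 5. Gsta3 passed 5 of 12 other alternatives, and it failed with array weights and with only the 2 groups in the fit. It did not pass at 72 hours, where the difference was -0.17. None of 50 drug and bile salt transporters passed in limma, with 2 higher and 2 lower at an unadjusted p below 0.05, a range of -0.43 to 0.27 and a median of 0.03. The bile salt uptake carrier Slc10a1 differed by 0.08 (-0.03 to 0.18), the organic anion carrier Slco1b2 by -0.05 (-0.22 to 0.13), the bile salt exporter Abcb11 by 0.03 (-0.14 to 0.20) and the conjugate exporter Abcc2 by -0.08 (-0.30 to 0.14). Abcb1a, P-glycoprotein, differed by 0.27 (-0.09 to 0.63). None of 31 regulators of drug metabolism and liver transcription and none of 20 bile acid synthesis genes passed in limma. At an unadjusted p below 0.05, 1 regulator was higher and 1 lower, and 2 bile acid genes were higher. At that p, 2.61% of all genes were higher and 2.36% lower. Cyp7a1, the rate-limiting enzyme of bile acid synthesis, averaged 11.29 ± 0.47 in EPO livers and 10.41 ± 0.91 in vehicle livers (SD, n = 5 each), a difference of 0.88 (0.09 to 1.68, adjusted p = 0.928). Alb, albumin, averaged 13.98 in both groups.

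Few genes of other liver programmes passed. For the unadjusted counts that follow, 2.61% of all genes were higher and 2.36% lower at p below 0.05 in limma, and some lists exceeded these shares. Of 41 positive acute phase genes Hamp alone passed, lower, and the list median was 0.01. Fatty acid synthesis (24 genes) had none past the threshold and 7 higher at an unadjusted p below 0.05, with a median of 0.22, and Elovl6, a fatty acid elongase, differed by 0.87 (adjusted p = 0.856). None passed in limma among 64 oxidative phosphorylation genes (6 lower unadjusted, median -0.10), 69 ribosomal protein genes (1 higher and 1 lower unadjusted), 21 cholesterol synthesis genes (1 and 1), 31 NRF2 and red cell antioxidant genes (2 higher), 51 chemokines and cytokines (3 and 1), and 28 male-biased and female-biased liver genes (2 lower). The same held for 23 heat shock protein genes and 19 clock genes, which had 0 at an unadjusted p below 0.05. Of 32 hypoxia response genes 1 passed, Bnip3l, already named, while 6 were higher and 0 lower without the adjustment. No marker passed in limma of hepatocytes (0 of 25, 2 lower unadjusted), liver endothelium (0 of 24, 1 higher), stellate cells and matrix (0 of 24, 1 higher and 2 lower), bile duct cells (0 of 15, 1 higher) or neighbouring tissue (0 of 25, 1 higher and 2 lower).

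The EPO livers were also set against the 5 intact sham livers. These 2 comparisons share the EPO arrays, so the genes' values are given side by side and their overlap is no separate result. Against sham, 178 genes were higher (1.23%) and 237 lower (1.63%), 2.86% in all. Of the 48 genes higher against vehicle, 44 were also higher against sham, all but Vopp1, Gsta3, S1pr5 and Ypel5, and all 5 lower genes were also lower. Alox15 differed by 4.57 against sham and by 4.32 against vehicle, Ahsp by 3.57 and 3.35, and Slc4a1 by 2.98 and 2.48. Pfkfb1 differed by -1.31 against sham and by -0.87 against vehicle. All 5 EPO arrays lay above all 5 sham arrays for 43 of the 48 genes, as they did for 367 of all genes (2.53%), and above all 5 anakinra arrays at 7 days for 42, as for 172 of all genes (1.19%). The counts against sham moved by more than 1.5 times with single arrays. The higher count was 111, 288, 101 and 76 without EPO arrays 1, 2, 3 and 5, and 106, 83 and 94 without sham arrays 1, 2 and 3. The lower count was 377, 98 and 71 without EPO arrays 2, 3 and 5, and 139, 85 and 98 without sham arrays 1, 2 and 3.

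EPO and vehicle livers at 72 hours and at 24 hours came from other rats and share no array with those at 7 days. At 24 hours limma called 4 genes (0.0276%), all higher with EPO, and none of the 4 was among the 48. At 72 hours 316 genes were higher (2.18%) and 79 lower (0.545%), 2.72% in all. Of the 48 genes higher at 7 days, 46 were also higher at 72 hours, which is 95.8% of the 48 and 14.6% of the 316. The exceptions were Gsta3 and S1pr5. The median log2 difference of the 48 genes was 0.09 at 24 hours, 1.32 at 72 hours and 1.02 at 7 days, the last being the value by which they were chosen. Of the 5 genes lower at 7 days, only Hamp was also lower at 72 hours, and Pfkfb1 differed there by -0.13.

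Vehicle arrays 3 and 5 at 72 hours stood apart from the other vehicle arrays, with Hamp at 11.55 and 9.67 against 12.89, 12.78 and 13.16, and Alox15 at 10.75 and 10.15 against 7.88, 6.80 and 8.86. Without them, a choice made after the data were seen, 286 genes were higher and 37 lower at 72 hours, and 46 of the 48 again passed.

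The Hamp difference between EPO and vehicle was -1.80 at 24 hours (adjusted p = 0.19), -3.80 at 72 hours and -5.66 at 7 days. EPO livers read 11.77, 10.56, 9.24, 11.89 and 11.58 at 24 hours, and vehicle livers then read 13.02, 12.63, 13.09, 12.45 and 12.87. At 72 hours EPO livers read 7.60, 8.92, 7.07, 8.32 and 9.16, of which 7.07 and 7.60 lay close to the values of 7 days. The difference at 7 days was larger than that at 24 hours by -3.86 (-5.10 to -2.62, adjusted p = 0.0016), and it passed whichever of the 20 arrays was left out. Between 7 days and 72 hours it differed by -1.87 (adjusted p = 0.39), and by -0.93 (adjusted p = 0.549) without vehicle arrays 3 and 5 at 72 hours. Hamp was the only gene called in limma with a more negative difference at 7 days than at 24 hours (0.00689% of genes). Cd52 was the only one called with a more positive difference (0.00689%, both together 0.0138%). Genes that were not called may still have differed, and the median over the 48 higher genes was 0.09 at 24 hours and 1.02 at 7 days. Cd52 changed by 2.10 (1.31 to 2.89, adjusted p = 0.018), with a difference of -0.05 at 24 hours. That call was lost without any 1 of EPO arrays 1 and 5 and vehicle arrays 2 and 5 at 7 days, and EPO arrays 1 and 2 and vehicle array 2 at 24 hours.

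**Figure D5:**
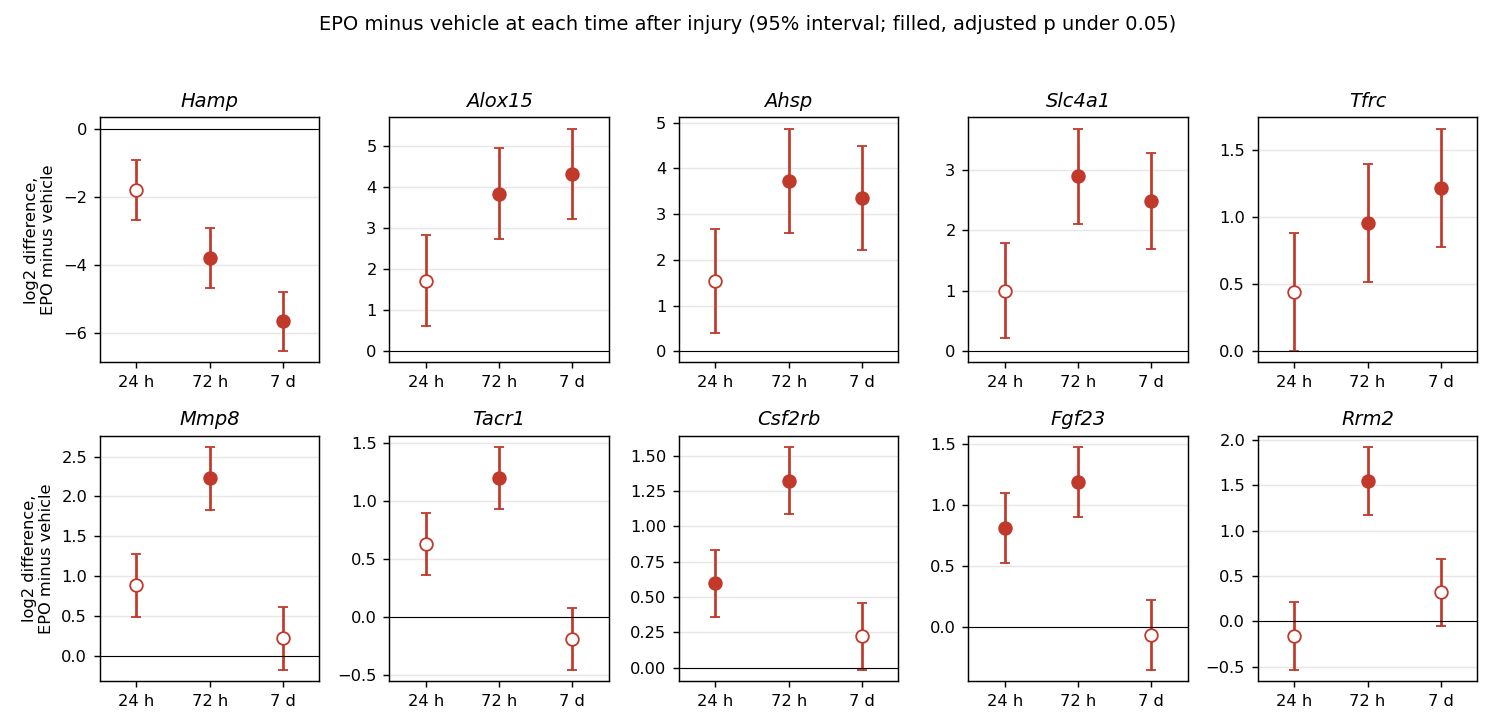
Log2 difference, EPO minus vehicle, at 24 hours, 72 hours and 7 days after injury, with 95% intervals and filled points for an adjusted p below 0.05. In the upper row Hamp reaches -5.66 and Alox15 4.32 at 7 days. In the lower row Mmp8, Tacr1, Csf2rb, Fgf23 and Rrm2 pass at 72 hours and none of them passes at 7 days.

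The log2 difference between EPO and vehicle was lower at 7 days than at 72 hours for 13 genes (0.0896%) and higher for 0 in limma, with 542 lower and 901 higher at an unadjusted p below 0.05. The genes that differed in either direction numbered 2 with dim genes left out and 4 with only the groups compared in the fit. Mmp8, the collagenase of neutrophil granules, read 6.06, 5.70, 6.14, 6.002 and 5.89 in EPO livers at 7 days, against 5.56, 5.57, 5.80, 5.93 and 5.86 in vehicle livers. At 72 hours it read 6.87, 8.09, 8.39, 8.69 and 8.65 in EPO livers, against 5.70, 5.68, 6.29, 5.79 and 6.11 in vehicle livers. The groups overlapped at 7 days and not at 72 hours, and the change in the difference was -2.01 (adjusted p = 2.4e-05). Further neutrophil genes also had a smaller difference at 7 days: Ngp, a granule protein of rat neutrophils, changed by -1.81, S100a9, a subunit of calprotectin, by -1.35 and its partner S100a8 by -0.95. Csf2rb, the shared beta chain of cytokine receptors that signal through JAK2, differed by 1.32 at 72 hours and by 0.22 (-0.02 to 0.46) at 7 days, a change of -1.10 (adjusted p = 0.00018). Fgf23, a hormone of phosphate balance, differed by 1.19 at 72 hours and -0.06 at 7 days, and Tacr1, the substance P receptor, by 1.20 and -0.19.

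Rrm2, a subunit of the enzyme that makes deoxynucleotides for DNA synthesis, differed by 1.55 at 72 hours and by 0.32 at 7 days, a change of -1.23 (adjusted p = 0.031). By list, 15 of 62 cell cycle genes, 11 of 26 Kupffer cell and macrophage genes, 8 of 25 neutrophil genes, 8 of 13 platelet genes and 5 of 31 EPO, JAK2-STAT5 genes were higher at 72 hours, when 2.18% of all genes were. The counts at 7 days, when 0.331% of all genes were higher, were 0, 0, 0, 1 and 0, and the difference between the counts was not tested. Of the 48 genes, Rhag alone was called as differing in size between the times, by -1.19 (adjusted p = 0.024), with 2.002 at 72 hours and 0.81 at 7 days. Of the 13 genes, Tacr1, Mmp8, Csf2rb, Ngp, Fgf23 and S100a8 passed whichever of the 20 arrays was left out. S100a9 did not pass without EPO array 4 at 72 hours, and Rhag did not without any 1 of 11 arrays: EPO arrays 3, 4 and 5 and vehicle arrays 2 and 3 at 7 days, and EPO arrays 3, 4 and 5 and vehicle arrays 1, 2 and 4 at 72 hours. Rrm2 did not pass without any 1 of 14 arrays: EPO arrays 2 to 5 and vehicle arrays 2, 3 and 5 at 7 days, and EPO arrays 3, 4 and 5 and vehicle arrays 1 to 4 at 72 hours.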

How the data were processed

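Total RNA from liver punches, labelled Cy3 per the labels, was hybridised to Affymetrix Rat Gene 1.0 ST arrays, 50 in 10 groups of 5. The deposited values are log2 expression after RMA in oligo, per the submitters' processing notes, with versions not given in the sources used here. RMA draws all arrays to a common distribution, so a value is relative to the rest of its array, low signals are compressed and a fold is a fold of signal. No scan dates, detection calls or scanner files were used, so batches could not be examined, and the number of arrays limits the precision. Each array is 1 animal.

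Of 29214 probes, 15310 had a single gene symbol in GEO's platform annotation, 323 several and 13581 none. The probe with the highest mean stood for each of 14506 genes. A group-means model over all 50 arrays (limma 3.58.1, R 4.3.3, 40 residual degrees of freedom) gave each contrast, 95% intervals and p-values adjusted by Benjamini-Hochberg over all genes, called below 0.05, and the fit was tested on simulated data. The text names from the 15 highest and 10 lowest called genes, up to 3 called genes per list, 39 core genes of iron, EPO and drug metabolism (37 measured), and the 5 genes of smallest p for each difference between times. Other genes named were chosen after their values were seen. Members, named genes and 37 gene lists (87.4% of 1352 entries measured) were chosen with earlier results of these data known. Alternatives changed the samples, weights, moderation, block, probes, scaling and arrays. Promoters are from RefSeq (GRCr8).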

Additional observations from a re-analysis of the deposited data

Results flagged for a closer look

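Single arrays stood apart from the rest of their group for 4 of the 122 gene and group sets tested, where chance gives about 6.1. Fgf23 read 5.43 in EPO array 4, next to 5.22 in the nearest EPO liver. Vehicle array 4 was the lowest of its group for Abcb11, at 12.05 next to 12.29, and the highest for Mthfd2, at 7.39 next to 7.12. Hjv read 10.32 in vehicle array 1, next to 10.94.

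The EPO effect (EPO minus vehicle, log2) differed between times in limma for the genes below. From 72 hours to 7 days it changed by -2.01 for Mmp8, -1.81 for Ngp, -1.35 for S100a9, -0.95 for S100a8 and -0.97 for Clec4d, which are genes of neutrophils and other myeloid cells. It changed by -1.38 for Tacr1, -1.26 for Fgf23 and -1.10 for Csf2rb, and by -1.19 for Rhag and -1.23 for Rrm2. For Chi3l1, a secreted chitinase-like protein, it changed by -0.94, for Acer2, a ceramidase, by -0.83 and for Lypd8l1 by -1.19. Acer2, Chi3l1, Clec4d and Lypd8l1 passed in 8, 14, 11 and 6 of the 20 fits that each left out 1 array. From 24 hours to 7 days the effect changed by -3.86 for Hamp and by 2.10 for Cd52.

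Among 13904 probes without a single gene symbol, which no comparison above used, 11 passed between EPO and vehicle livers at 7 days, 10 higher and 1 lower. Their log2 differences ran from -0.71 to 3.28, and the next highest was 3.07. These 2 exceeded all named genes but Alox15 and Ahsp.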

How the results depend on the processing

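Of the 53 genes, 27 passed under every alternative run, 31 whichever array was left out, and 0 changed direction. The higher and lower counts against vehicle, 48 and 5, ran over 30 to 52 and 2 to 5 with 1 array left out. With only the 2 groups in the fit, 31 genes were higher, and 31 of the 38 called were among the 53. With arrays quantile-normalized again, or without the narrow EPO and vehicle arrays 3, 3 genes were lower. Against sham (178 higher, 237 lower) the ranges were 76 to 288 and 71 to 377. Array weights gave 308 and 567, leaving out the narrow arrays 112 and 131, only the 2 groups 526 lower, and centring on hepatocyte markers a split of 320 higher to 162 lower. Genes whose EPO effect differed between 7 days and 72 hours (13) numbered 4 with only those groups, 2 without dim genes and 7 without the narrow arrays, and 6 to 18 with 1 array left out. Between 7 days and 24 hours (2) there were 39 with array weights, 19 with only those groups, 8 with a common median and deviation, 7 after a second quantile normalization, 4 without dim genes, and 1 to 11 with 1 array left out. The causes were not tested, beyond the fewer arrays or genes that some of these fits use. Leaving out arrays at 72 and 24 hours was chosen after seeing the data.

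The replicate numbers were not taken to pair the livers in the main fit. The same-number correlations of deviations were 0.22, 0.38, 0.62, 0.16 and -0.20, and arrays 3 and 4 correlated best with their own number. These values do not settle whether the numbers pair the livers. With the number as a replicate block, 47 genes were higher and 5 lower, 50 of them among the 53 (all but Gsta3, Pdk3 and Zmiz2), and the counts against sham were 194 and 232. Those between times were 14 and 3.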

Other observations

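The genes below came near the threshold without passing it, and they are named after their values were seen. Cyp17a1, an enzyme of steroid synthesis, read 7.37, 6.86, 8.05, 6.83 and 7.42 in EPO livers, against 8.45, 9.40, 9.24, 8.36 and 7.996 in vehicle livers, a log2 difference of -1.38 (95% interval -2.09 to -0.68, adjusted p = 0.0659 in limma). Only EPO array 3 reached the lowest vehicle value. Ccnd1, cyclin D1, read 8.17, 8.02, 8.14, 8.29 and 8.26 in EPO livers, against 9.28, 8.72, 9.47, 8.72 and 8.80 in vehicle livers. Its groups did not overlap, at -0.82 (adjusted p = 0.079), and against sham, where values were 9.22 to 10.07, the same EPO livers differed by -1.52 (adjusted p = 7.7e-06). Apoa4, an apolipoprotein whose gene lies in the same cluster as Apoa5, differed by -0.72 (adjusted p = 0.0519), with EPO array 1 inside the vehicle range. Lgals5, a galectin of rat reticulocytes, read 10.81, 9.85, 10.20, 10.33 and 10.43 in EPO livers, against 9.50, 8.70, 9.52, 8.97 and 8.85 in vehicle livers, a difference of 1.22 (adjusted p = 0.061).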
